A study of Equus caballus with 12 samples.

Results

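The lung and the heart of the same animals were compared by RNA-seq of polyadenylated RNA. The comparison (LvsH, lung over heart) used the 8 libraries labelled lung or heart among the 12 libraries of the series, 4 of each tissue, and both libraries of a pair came from 1 horse according to the labels. The animals were 4 healthy cold-blooded stallions in the second year of life, kept without any experimental treatment and sampled at slaughter. Lung tissue was taken from the caudal lobe of the right lung and heart tissue from the left ventricle, so each library stands for 1 site of an organ and for the mixture of cells found there. The liver libraries of the same horses entered the filter on low counts, the scaling, the shared estimate of the spread and the check for liver transcripts.

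The left ventricle is a working muscle in which contractile proteins, calcium handling and mitochondrial energy supply are made from a small set of very abundant messengers. The lung carries out gas exchange and holds airway and alveolar epithelium, a dense capillary bed, connective tissue and many resident immune cells. Genes were listed by Ensembl identifier, and none of the tested identifiers could be paired with a symbol here, so the defining markers of the tissues were not examined and no gene below is given a function. In samples of whole tissue, fewer cells of a type and less RNA per cell cannot be told apart.

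Reads counted in genes ranged from 6146728 to 23474239 in heart libraries and from 8395937 to 22247307 in lung libraries. A few genes took much of the counts in the heart, so TMM (trimmed mean of M-values) factors, which set the bulk of the genes equal, were applied to the libraries. After this scaling the heart library was the smaller of the pair in 4 of 4 horses: its size was 80.1% of that of the lung library in horse 1, 28.8% in horse 2, 7.49% in horse 3 and 31.3% in horse 4. Low-expressed genes were therefore read least deeply in heart replicate 3. Heart replicate 2 carried transcripts of the liver, and the results that rest on it are given with and without it.

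Gene expression differed between lung and heart across much of the transcriptome. Of 15436 tested genes, 6972 were differentially expressed genes (DEGs), or 45.2%, with an adjusted p below 0.05 and a change of at least 2-fold (edgeR's quasi-likelihood test, Benjamini-Hochberg adjustment over the tested genes). Expression was higher in the lung for 3778 genes, 24.5% of those tested, and higher in the heart for 3194 genes, 20.7%. The split depended on the scaling: the lung side held 54.2% of DEGs with TMM, compared with 92.8% of 12142 DEGs when library totals were used alone. Directions below are relative to the TMM scale, on which the median log2 fold change of the tested genes was 0.03, against 1.85 with totals.

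The ratio of lung to heart was then formed within each horse, as the difference of log2 CPM (counts-per-million values on TMM-scaled sizes, with a prior count of 2). Its median over the tested genes was 0.01 in horse 1, -0.01 in horse 2, 0.17 in horse 3 and 0.08 in horse 4. The quartiles of the ratio were -0.88 and 1.13 in horse 1, -0.78 and 0.88 in horse 2, -0.90 and 1.56 in horse 3 and -0.82 and 1.14 in horse 4. Horse 3 thus had the widest and horse 2 the narrowest distance between the quartiles. Genes that differed by less than 2-fold between the tissues of an animal made up 50.6%, 56.8%, 44.0% and 51.4% of the tested genes in horses 1 to 4.

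**Figure D1:**
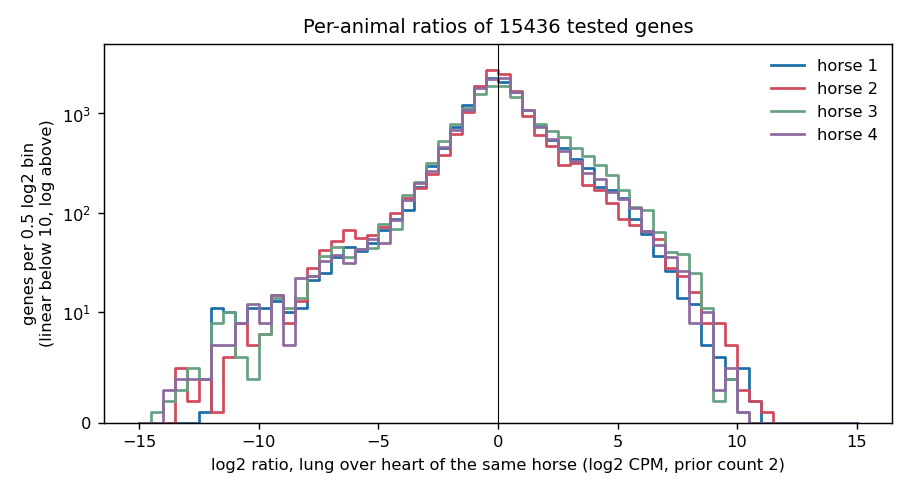
Distribution of the per-animal log2 ratio of lung over heart for the 15436 tested genes, with 1 line per horse; the horizontal axis is the difference of log2 CPM and the vertical axis counts genes per bin, linear below 10 and logarithmic above. The 4 lines lie close together near 0, horse 3 holds the most genes between about 2 and 8 on the lung side, and the heart side reaches further from 0 than the lung side in all 4 horses.

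Large ratios were unevenly placed. In horses 1 to 4, 1147, 972, 1643 and 1199 genes were at least 10-fold higher in the lung, and 611, 755, 696 and 662 were at least 10-fold higher in the heart. At 100-fold, 103, 136, 168 and 130 genes were that much higher in the lung, and 158, 181, 181 and 188 were that much higher in the heart. The prior count bears on these numbers, since a gene with no read in the heart stands at 0.111 CPM and had to reach 11.1 CPM in the lung to be counted as 100-fold. In the fitted values of the DEGs the order was the opposite, with 314 genes at least 100-fold higher in the lung and 217 in the heart, so the order of the tissues at 100-fold depends on the measure. A ratio of at least 10-fold in all 4 horses was found for 527 genes towards the lung and 425 towards the heart, and one of at least 100-fold for 34 and 107.

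The animals mostly gave the same direction. Of all tested genes, 5696 (36.9%) were higher in the lung in all 4 horses and 5107 (33.1%) were higher in the heart in all 4, while 4633 (30.0%) had no common direction. Among the genes called higher in the lung, 3716 of 3778 were so in every horse, and among those called higher in the heart, 2984 of 3194. The exceptions numbered 62 and 210, so genes called higher in the heart more often had a horse without that direction; this difference was not tested. Of the 8464 genes that were not called, 1980 still pointed to the lung in all 4 animals and 2123 to the heart.

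Libraries of the tissues did not overlap for a large share of genes. Every lung library exceeded every heart library for 4683 genes (30.3%), and every heart library exceeded every lung library for 4178 (27.1%). Of these, 3541 and 2807 were also DEGs. For 372 of the 15436 tested genes the lung was at least 2-fold higher in one horse and the heart at least 2-fold higher in another, and 43 of these had at least 20 counts in each of the 8 libraries.

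When genes were sorted by abundance, the direction of the difference followed the level of expression. Classes were formed by the mean log2 CPM of the 8 libraries, which gives both tissues the same weight. Below 1 CPM, 880 of 1978 genes were higher in the lung and 350 in the heart. Between 1 and 10 CPM the numbers were 1852 and 1208 of 5937 genes. Above that level the heart had the larger number, with 986 higher in the lung and 1429 in the heart of 6821 genes between 10 and 100 CPM, and with 59 and 192 of 676 genes between 100 and 1000 CPM. Of the 24 genes at 1000 CPM or more, 15 were higher in the heart. The share of DEGs higher in the lung thereby fell from 71.5% in the lowest class to 60.5%, 40.8% and 23.5% in the next 3 classes.

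The medians of the per-animal ratios followed the same order in each horse. In the lowest class they were 1.03, 0.77, 1.67 and 1.14 in horses 1 to 4 on the log2 scale. Between 10 and 100 CPM they were -0.18, -0.13, -0.08 and -0.12, and between 100 and 1000 CPM -0.45, -0.36, -0.42 and -0.33. Among the 24 most abundant genes the medians were -5.51, -5.90, -6.05 and -6.41. The ranges of the 4 horses did not overlap between these classes.

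**Figure D2:**
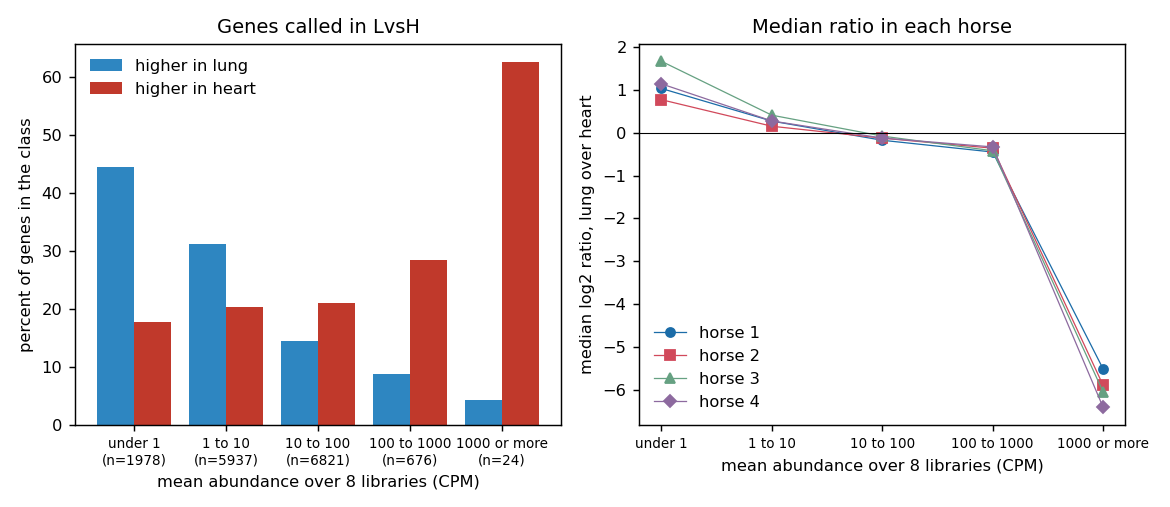
Left, percent of the genes of each abundance class called higher in lung or in heart, with the number of genes in the class below; right, median log2 ratio of lung over heart in each class, with 1 symbol per horse. Bars for lung fall from 44.5% to 4.17% and bars for heart rise from 17.7% to 62.5% with abundance, and the medians fall from above 0 to between -6.41 and -5.51.

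Depth and scaling bear on this order. The filter on low counts used the counts of every tissue, the liver included. A gene below 1 CPM on average could therefore pass through its level in 1 tissue. The filter also worked on library totals, before the TMM factors of 2.10 to 2.24 in lung and 0.583 to 0.652 in heart. A gene could thus pass through the lung at a lower TMM-scaled level than through the heart. The filter therefore did not treat the tissues alike, and the thinned counts below were filtered in the same way. The part of this in the share of DEGs of the lowest class was not tested. With each lung library thinned to the TMM-scaled size of the heart library of the same horse, the share of DEGs higher in the lung was 78.9% below 1 CPM, 59.5% between 1 and 10, 38.6% between 10 and 100 and 22.3% between 100 and 1000 CPM. With library totals in place of TMM the shares were 91.1%, 92.0%, 94.8% and 86.7%, so that the heart no longer had the larger number between 10 and 1000 CPM. The class medians relative to the median of all tested genes were at 1.12, 0.21, -0.17 and -0.42 in these 4 classes with TMM and at 1.04, 0.21, -0.16 and -0.41 with totals. A change of scaling factors moves the fold changes of all genes by nearly the same amount. This likeness was therefore largely fixed in advance, and the values are a description.

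The spread between animals depended on abundance as well. The median SD of the 4 per-animal ratios of a gene was 0.99 below 1 CPM, 0.64 between 1 and 10, 0.35 between 10 and 100 and 0.31 between 100 and 1000 CPM. Counting error alone was approximated from the reads of each library, with 2 added to each count, which gave medians of 0.84, 0.34, 0.12 and 0.05. The prior count of the ratios was scaled to library size instead, and the approximation is least reliable at low counts. The value in the lowest class is thus a rough guide. The observed median lay closest to the approximation in that class and exceeded it by more than a factor of 2 above 10 CPM. The sources of the spread were not tested. Heart libraries varied more than lung libraries, with a median SD of log2 CPM of 0.30 against 0.20 between 10 and 100 CPM and of 0.28 against 0.20 between 100 and 1000 CPM. Without heart replicate 2 the heart values were 0.28 and 0.24. On TMM-scaled sizes each heart library was smaller than the lung library of its horse. The part of counting error in the larger heart values was not tested.

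An approximate 95% interval of the log2 fold change was formed with normal limits from the SE, which are narrower than those of the test. For 4254 genes, 27.6% of those tested, it stayed within 2-fold in either direction. This was the case for 13 genes below 1 CPM (0.657%) and for 1074 between 1 and 10 CPM (18.1%), compared with 2892 between 10 and 100 CPM (42.4%). A lack of a call among low-expressed genes therefore says little about equal expression.

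The tissues differed in how their counts were divided among genes, and the horses differed little in this. Genes at 1000 CPM or more, by the library's own gene counts, took 66.6%, 65.6%, 69.1% and 69.3% of the counts in heart replicates 1 to 4 and 18.4%, 21.5%, 20.8% and 19.7% in lung replicates 1 to 4. They numbered 42 to 52 in heart libraries and 85 to 95 in lung libraries. The lung, with the larger number of such genes, gave them the smaller share in each horse, with a difference of lung minus heart between -49.6 and -44.1 percentage points. Genes between 10 and 100 CPM took 32.1% ± 0.319 in the lung and 15.2% ± 0.806 in the heart (SD, n = 4 each).

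The effective number of genes, the number of equally abundant genes that would give the same evenness (Shannon entropy), was 4392 ± 194 in the lung and 168 ± 3.66 in the heart (SD, n = 4 each). It ranged from 4151 to 4602 over lung libraries and from 163 to 171 over heart libraries. Reads outside annotated genes, as a share of the reads listed, were more frequent in the lung by 8.60 to 10.5 percentage points within a horse. Reads that could not be assigned to a single gene were less frequent in the lung, with differences between -5.51 and -3.14 points. All 5 measures, compared without pairing, gave p = 0.0286 in a two-sided exact permutation test, the smallest value that 4 against 4 libraries allow, and an adjusted p of 0.0286 over the 5. Paired within horses, an exact sign-flip test gave p = 0.125, the smallest that 4 pairs allow.

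The counts of the heart lay mostly in genes that differed strongly from the lung, whereas those of the lung lay mostly in genes that were not called. The 217 genes at least 100-fold higher in the heart in the fitted values took 30.4%, 23.4%, 32.7% and 33.6% of the counts in heart replicates 1 to 4. The 599 genes that were 10- to 100-fold higher in the heart took 41.3%, 46.4%, 40.3% and 40.4%. Heart replicate 2 was the lowest library for the first set and the highest for the second. The 8464 genes not called took 17.4% ± 1.90 of heart counts and 58.5% ± 0.504 of lung counts (SD, n = 4 each). These sets were chosen by the same fold changes, so the shares are a description.

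On the side of the lung, the 2439 genes that were 2- to 10-fold higher took 17.4% ± 1.04 of the counts of lung libraries, against 1.53% ± 0.276 in heart libraries. The 314 genes at least 100-fold higher in the lung took 4.80%, 7.70%, 5.42% and 5.85% of the counts in lung replicates 1 to 4, and 0.00233% to 0.00771% of the counts of heart libraries.

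**Figure D3:**
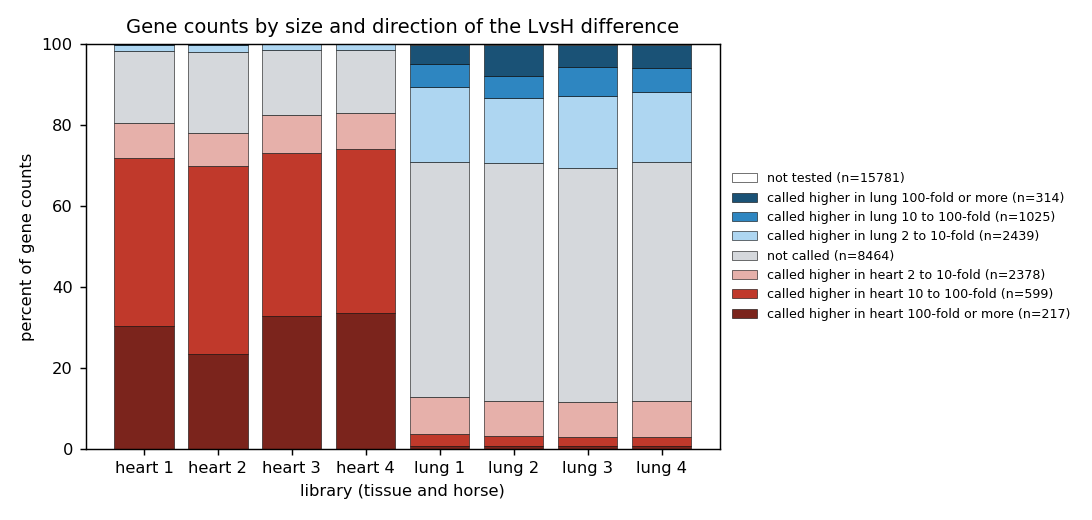
Percent of gene counts in each lung and heart library taken by genes grouped by direction and size of the fitted LvsH difference; each bar is a library and the segments add up to 100%. Genes at least 10-fold higher in heart fill most of each heart bar, and genes that were not called fill 58.0% to 59.0% of each lung bar.

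The most abundant genes were largely the same in the hearts of the 4 animals. The 10 most abundant genes of each heart library gave 13 different genes over the 4 horses, 8 of which were among the 10 in every horse, and 13 of 13 were DEGs higher in the heart, as were 20.7% of all tested genes. The 8 genes took 51.5%, 49.2%, 51.9% and 48.4% of the counts in heart replicates 1 to 4, and 2.24%, 1.84%, 1.93% and 1.60% of the counts in the lung of the same animals. Their fitted log2 fold changes lay between -6.98 and -6.26. In the lung the lists of 10 gave 18 different genes, of which 9 were DEGs higher in the lung, as were 24.5% of all tested genes. Another 2 were DEGs higher in the heart. Those among the 10 in every horse numbered 5. They took 3.91%, 5.14%, 4.40% and 4.63% of the counts in lung replicates 1 to 4. In the heart of the same animals they took 24.0%, 30.6%, 21.2% and 22.8%. The lists were chosen by the level in 1 tissue, so these values are a description.

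The same contrast held further down the ranks. Of the 100 genes with the highest mean CPM in the heart, 81 were DEGs higher in the heart (20.7% over all tested genes), with a median log2 fold change of -6.29. Of the 100 leading genes in the lung, 40 were DEGs higher in the lung (24.5% over all tested genes) and 53 were not called, with a median of 0.66. The lists of 100 shared 26 genes, 26% of each. Because the genes were taken for a high level in 1 tissue, a shift towards that tissue is built in, and the values of heart and lung are set side by side as a description.

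Some genes were read in 1 tissue of an animal and not in the other. In the counts as deposited, 511, 747, 1922 and 868 genes had at least 10 reads in the lung and none in the heart of horses 1 to 4, against 267, 146, 60 and 149 in the opposite direction. The highest and the lowest of these numbers belonged to horse 3, whose heart library was the shallowest. When the lung library was thinned to the TMM-scaled size of the heart library of the same horse, the numbers were 450, 376, 508 and 495 for the lung and 296, 275, 228 and 244 for the heart. The lung had the larger number in 4 of 4 horses after thinning. At least 10 reads in each of 4 libraries and none in the other tissue were found for 161 genes of the lung and 23 of the heart in the deposited counts. These are numbers out of 31217 listed genes. They were not repeated with thinned libraries, so the part of depth in them was not tested.

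Single genes were named by the smallest difference that any horse showed. Among DEGs at 100 CPM or more in the higher tissue and with at least 10 counts in each of the 8 libraries, 187 were eligible for the lung and 539 for the heart, and the 2 with the largest such minimum in each direction are given. All 4 lie far outside the spread between animals, which the rule fixes in part, since it used the ratios themselves.

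ENSECAG00000021053 was found at 907, 2328, 2161 and 1751 CPM in lung replicates 1 to 4. In the heart of the same animals it was at 1.20, 3.83, 4.75 and 3.56 CPM. Lung replicate 1 was the lowest of the lung libraries and heart replicate 1 the lowest of the heart libraries, so the ratio varied less, from 445-fold in horse 3 to 694-fold in horse 1. The fitted log2 fold change was 9.11 ± 0.54 (SE).

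ENSECAG00000018767 reached 2323, 4818, 5881 and 3038 CPM in lung replicates 1 to 4. Its level in heart replicates 1 to 4 was 1.79, 5.80, 12.9 and 7.13 CPM. Horse 3 had the highest value in both tissues and horse 1 the lowest in both, and the ratios ran from 420-fold in horse 4 to 1219-fold in horse 1. The log2 fold change was 9.22 ± 0.65 (SE), and the liver stood at 4.10 ± 0.927 CPM (SD, n = 4), close to the heart.

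In the opposite direction, ENSECAG00000019844 was found at 17645, 11384, 14540 and 18596 CPM in heart replicates 1 to 4. The lung held 4.95, 1.07, 1.44 and 2.18 CPM, with the highest value in horse 1. Horse 1 therefore had the smallest ratio, 3485-fold, and the other horses lay between 8111-fold and 9646-fold. The fitted log2 fold change was -12.66 ± 0.69 (SE).

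ENSECAG00000007867 was at 6920, 3678, 9827 and 10377 CPM in heart replicates 1 to 4, lowest in horse 2. In the lung it was at 1.92 CPM in horse 1 and at 0.568, 0.669 and 0.664 CPM in horses 2 to 4, or 17 to 36 reads per library. The ratio was 3412-fold in horse 1, 5418-fold in horse 2, 12602-fold in horse 3 and 13394-fold in horse 4, and the log2 fold change was -13.00 ± 0.71 (SE). In edgeR's test, adjusted p ranged from 8.98e-09 to 8.28e-08 over these 4 genes, and lung and heart libraries did not overlap for any of them. Both follow in large part from the choice of the genes among DEGs by their ratios.

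**Figure D4:**
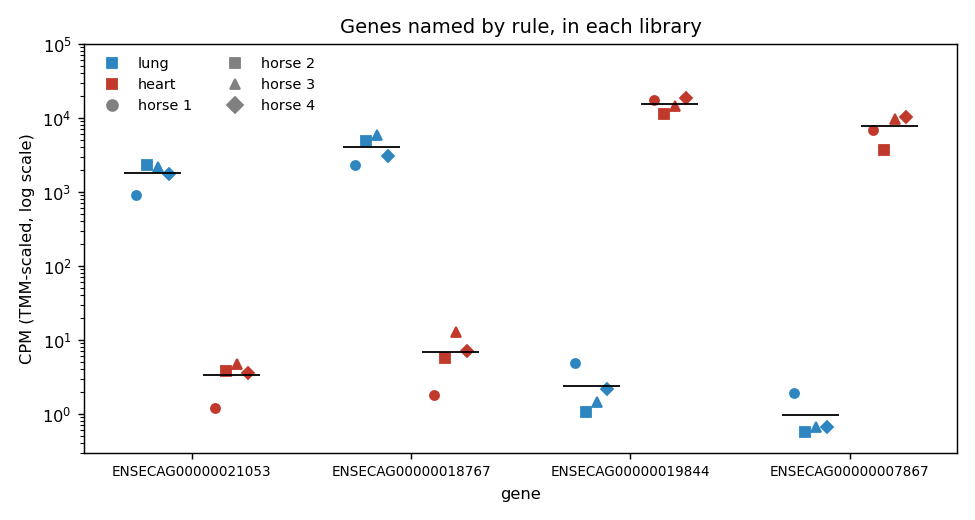
Level of the 4 genes named by rule in each of the 8 libraries, in CPM on TMM-scaled sizes and a log axis; colours are tissues, symbols are horses and black lines are means of 4 libraries. The 2 genes on the left stand at 907 CPM or more in lung and at 12.9 CPM or less in heart, and the 2 on the right at 3678 CPM or more in heart and at 4.95 CPM or less in lung.

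Horses were also compared by how far their ratio departed from the mean of the other 3. Over the 7521 genes at 10 CPM or more, the median departure was 0.30 in horse 1, 0.33 in horse 2, 0.36 in horse 3 and 0.25 in horse 4 on the log2 scale. Departures of at least 4-fold were then counted over all tested genes. In horse 2, 788 genes departed towards the heart and 246 towards the lung. In horse 3, 862 departed towards the lung and 203 towards the heart, and its heart library had 7.49% of the TMM-scaled size of its lung library. The part of depth in this was not tested. Horse 1 had 349 towards the lung and 242 towards the heart, and horse 4 had 210 and 99. Over the genes at 10 CPM or more, the numbers towards the lung and towards the heart were 40 and 14 in horse 1, 22 and 77 in horse 2, 88 and 24 in horse 3 and 23 and 2 in horse 4. Horse 2 was the only animal with more departures towards the heart, in both sets of genes.

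Of the 788 genes that departed towards the heart in horse 2, 370 were at least 10-fold higher in the liver than in the lung mean and the mean of the other 3 heart libraries. The share of all tested genes that met this condition is not given, so no excess can be read from the 370. To follow liver transcripts, 240 genes were taken that had at least 50 CPM in the liver. They had at most 1/100 of that level in the mean of the lung libraries and in the mean of heart replicates 1, 3 and 4. The levels in those libraries were thus kept low by the choice, while that in heart replicate 2 was left free. The values of this set are therefore a description. Their median level in heart replicate 2 was 3.00% of that in the liver, against 0.0497%, 0.257% and 0.107% in heart replicates 1, 3 and 4 and 0.0343% to 0.0729% in the lung libraries. The set took 1.22% of its counts, compared with 0.0240% to 0.102% in the other heart libraries.

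The lung to heart comparison of these genes rested in large part, but not wholly, on that library. Their median log2 ratio was -5.09 in horse 2 and -0.13, -1.49 and -0.98 in horses 1, 3 and 4. With all libraries, 184 of the 240 genes were DEGs on the heart side and 0 on the lung side, where all tested genes gave 20.7% and 24.5%. Without heart replicate 2, 76 were on the heart side and 16 on the lung side, where all tested genes gave 19.8% and 26.2%, and the median log2 fold change was -1.22 instead of -4.00.

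Across the whole comparison, leaving out heart replicate 2 gave 7320 DEGs among 15906 tested genes, of which 4168 (26.2% of those tested) had the higher level in the lung and 3152 (19.8%) in the heart. Among the genes of the first fit, 262 calls were lost on the heart side and 124 on the lung side, while 353 were gained for the lung and 162 for the heart. Of the 262 heart-side genes lost, 154 were at least 10-fold higher in liver than in lung (share over all tested genes not given). The class below 1 CPM thereby went from 350 to 224 genes higher in the heart, whereas the class between 100 and 1000 CPM went from 192 to 189. None of the genes changed from one called direction to the other.

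Fold changes of 1096 genes (7.10%) moved by over 1.5-fold without heart replicate 2, 1096 of them towards the lung. The other libraries moved fewer genes when left out: 497 for heart replicate 1, 122 and 226 for heart replicates 3 and 4, and 68 to 361 for the lung libraries. Without heart replicate 1, 281 of the 497 moved towards the lung and 216 towards the heart. Without a lung library, every gene that moved did so towards the heart. Leaving out the highest library can lower a tissue mean by a large factor, whereas leaving out the lowest raises it only a little. The limit of 1.5-fold therefore largely sets these directions, and they are a description.

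**Figure D5:**
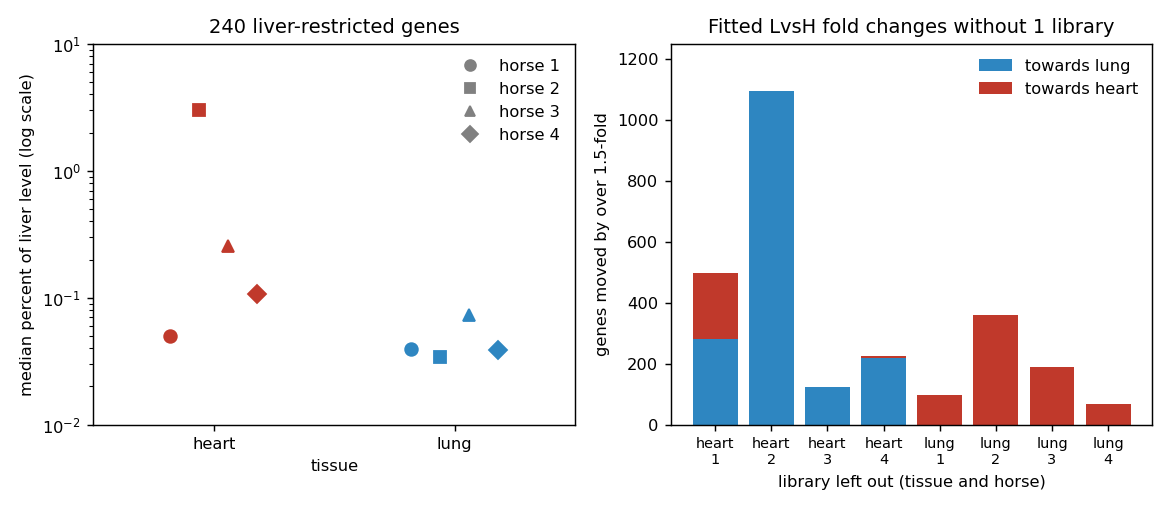
Left, median over the 240 liver-restricted genes of the level per library, given as percent of the level in liver, on a log axis with 1 symbol per horse; right, number of genes whose fitted LvsH fold change moved by over 1.5-fold when the named library was left out, coloured by direction. Heart replicate 2 stands at 3.00% on the left, above 0.257% in the next library, and moved 1096 genes on the right, against 497 for the next.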

How the data were processed

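RNA was sequenced from lung and heart of 4 horses (horse number is the replicate number). The values deposited by the authors were raw read counts per Ensembl gene, not normalized: per the labels and methods, reads were checked with FastQC, aligned to EquCab3.0 with TopHat2 and counted with HTSeq, and the authors compared tissues with DESeq2. No source used here gives the strand setting, so overlapping and antisense genes, and near-identical copies, are uncertain. Summary rows of HTSeq stayed out of sizes and tests; reads outside genes were 18.7% to 30.2% and ambiguous reads 1.78% to 7.29% of reads listed in lung and heart files. Of the tested identifiers, 0 could be paired with a symbol, so no gene list was counted.

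Counts were analysed with edgeR 4.0.16 in R 4.3.3: default filter by tissue, TMM, and a robust quasi-likelihood fit of all 12 libraries by tissue. The SE of a log2 fold change is its size divided by the square root of F. Alternatives were DESeq2 1.42.0, other scalings and filters, left-out libraries and the horse as a block. The fit was tested on simulated data. Same-horse libraries share an animal per the labels; their deviations from the tissue means correlated with r of 0.0976 to 0.167 across genes, and those of different horses with r of -0.149 to 0.128, so the ranges overlap. The 4 genes named follow the rule in the text. The members, rules and lists were chosen with earlier results of these data known. Molecular identifiers were not used, so limits from counts cover counting error only. Replicate libraries differed by more than sampling noise.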

Additional observations from a re-analysis of the deposited data

Results flagged for a closer look

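A single library lay far from the other 3 of its tissue in 10 of 71 groups of 4 values examined. Chance flags about 1 in 20 of independent groups, but many of these share counts or genes, so that rate is a rough guide. Heart replicate 2 stood apart in 5: the liver-restricted genes at 3.00% of their liver level and at 1.22% of its counts, genes 10- to 100-fold higher in the heart at 46.4% of its counts, genes 10- to 100-fold higher in the lung at 0.120%, and genes below 1 CPM at 0.148%. For the liver-restricted genes, the other heart libraries were kept low by the choice of the set. Heart replicate 3 had the lowest share of reads outside genes, 18.7%. Lung replicate 3 had the lowest share of counts in genes between 10 and 100 CPM, 31.6%, and the highest level of the liver-restricted genes among lung libraries, 0.0729%. In horse 1, the log2 ratio of ENSECAG00000019844 was -11.77, the smallest change of the 4 horses, and ENSECAG00000007867 stood at 1.92 CPM in the lung, the highest of the 4.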

How the results depend on the processing

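The number of LvsH DEGs lay between 6847 and 7320 when each library was left out in turn, with 3719 to 4168 higher in the lung and 3127 to 3275 higher in the heart. With the horse as a replicate block it was 6993, with 3879 and 3114, and the block moved no count by over 1.5 times. DESeq2 gave 7816. Library totals alone gave 12142 DEGs, 11264 higher in the lung and 878 in the heart. The mean of the 4 per-animal medians, 0.06 ± 0.08 (SD), was 1.83 with totals, 0.19 with upper quartile factors and -0.16 over genes at 10 CPM or more. Below 1 CPM, the genes higher in the heart numbered 224 without heart replicate 2, 183 with thinned lung libraries and 209 with lung and heart libraries only, against 350, where the last 2 were chosen after seeing the data, and the class median went from 1.15 to 1.92 with lung and heart libraries only; those higher in the lung numbered 586 with classes by totals, against 880, and at 1000 CPM or more there were then 2. A limit of 30-fold for the liver-restricted genes gave a median ratio of -4.25 in horse 2. In the exact sign-flip test with horses paired (replicate block), differences of -47.5 and 16.9 percentage points, 4224 genes, and 9.64 and -3.92 points had p = 0.125, the smallest possible. Leaving out 1 library moved these 5 differences, in the same order, within -48.2 to -47.0, 16.6 to 17.1, 4154 to 4304, 9.27 to 9.85 and -4.26 to -3.52, and 3 against 4 libraries give no exact p below 0.0571. The fold changes of the 4 named genes, which were chosen for large ratios in every horse, kept direction and call with each library left out and with the block. Depth limits the genes below 1 CPM most.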
